A study of Danio rerio with 9 samples.

Results

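At 10 days post fertilization (dpf), sorted cells with low cd41:GFP fluorescence were compared between runx1-/- and wild-type (WT) zebrafish. Every cell barcode of the 2 libraries with at least 500 unique molecular identifiers (UMIs), at least 200 genes and at most 20% of UMIs from mitochondrial genes was used. This gave 2583 WT cells and 3323 runx1-/- cells, or 5906 of the 29994 cells that passed the same limits in the 9 libraries of the series. Other libraries of the series come from ages of 2.5, 6 and 16 dpf, and each genotype had 1 library at 10 dpf. Both groups were of the EK strain and carried the tg(cd41:GFP) transgene, a green fluorescent protein driven by the promoter of cd41 (itga2b). The mutant group carried the del8 (hg96) allele of runx1 on both chromosomes. No treatment was named for either group, and the number of animals behind a library was not given in the sources used here. The reporter labels thrombocytes as well as stem and progenitor cells, and the gate took the dim cells, so the data hold what was sorted, not all blood cells of the larvae. With 1 library per genotype there was no replicate and no test, and every interval below is a 95% interval for counting error only.

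Runx1 is the DNA-binding subunit of core binding factor, with Cbfb as its partner. It is needed in vertebrate embryos for the endothelial-to-haematopoietic transition, in which endothelial cells of the dorsal aorta turn into haematopoietic stem and progenitor cells (HSPCs). Gata2 factors act in the haemogenic endothelium and in HSPCs, Tal1 and Lmo2 form a DNA-binding complex with Gata factors, and Myb maintains definitive HSPCs. In zebrafish larvae, definitive HSPCs settle in the caudal haematopoietic tissue, the kidney marrow and the thymus. Red cells of the primitive wave carry embryonic globin chains.

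Of 2711 WT barcodes and 3505 runx1-/- barcodes, 127 and 176 were over the mitochondrial limit, and 25 and 85 had too few genes. The cells kept held 29011927 UMIs in WT and 34519609 in runx1-/-. The median cell had 10818 UMIs and 1776 genes in WT, against 7542 UMIs and 1562 genes in runx1-/-. The libraries shared 5 barcodes, 0.194% of the WT cells and 0.150% of the runx1-/- cells. Clustered together, the libraries lay largely apart: 17 of 26 clusters, with 79.8% of all cells, drew over 90% of their cells from 1 library. Clusters that could not be named from markers held 1635 WT cells (63.3%) and 2297 runx1-/- cells (69.1%). The gene of the reporter, itga2b, had a level of 6.03 CPM in WT and 4.43 CPM in runx1-/- (CPM are counts scaled to 1000000 UMIs per library), with a UMI in 3.02% and 3.22% of cells. The labelled subset thus had little itga2b RNA in either library at this depth. The runx1 transcript itself was counted 56 times in WT and 138 times in runx1-/-, or 1.93 and 4.0 CPM. A count at the 3′ end of a transcript does not check a deletion of 8 bases whose position was not given in the sources used here, so these values do not test the genotype label.

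Levels below are raw UMI counts summed over all cells of a library and given as CPM. Ratios are log2 of runx1-/- over WT with a prior of 1 count. In such sums, fewer cells of a type and less RNA per cell cannot be told apart. Of 7216 genes with a mean level of at least 5 CPM, 938 (13.0%) were at least 2-fold higher in the runx1-/- library and 386 (5.35%) were at least 2-fold lower. The median log2 ratio over these genes was 0.18. Scaling by trimmed means or by median ratios moves every log2 ratio by -0.22 or -0.23, and higher genes then made up 52.7% or 51.6% of the genes at least 2-fold apart, against 70.8% on plain totals. Ribosomal protein genes, as part of those totals, took 465621 CPM in WT and 367626 CPM in runx1-/-, and none of the 78 that passed the CPM limit was 2-fold apart.

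**Figure D1:**
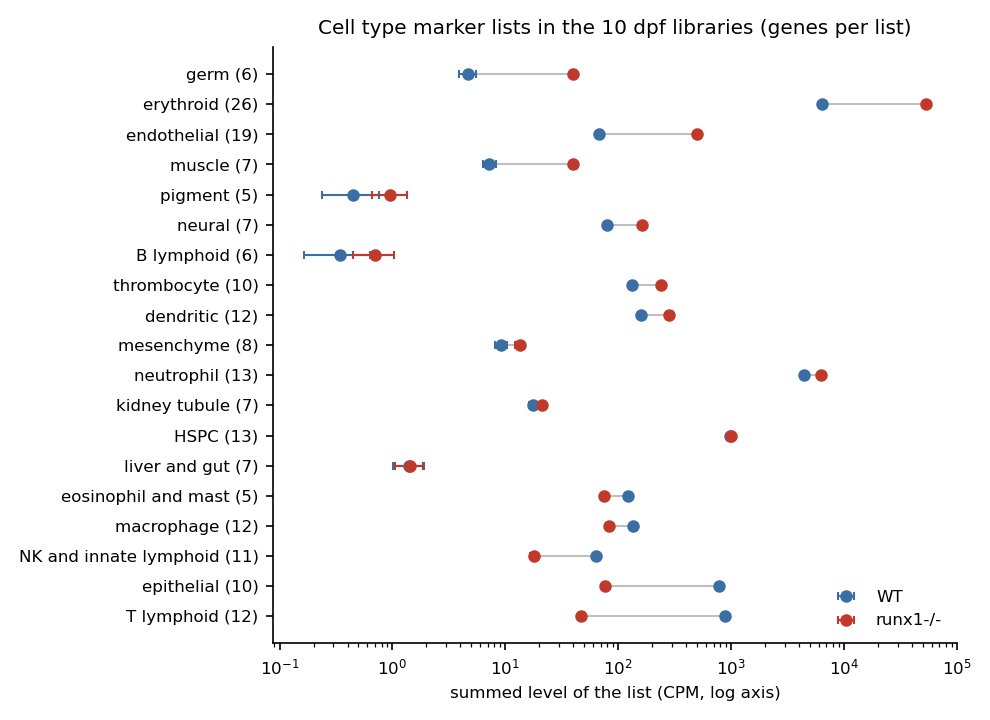
Summed level of each list of cell type markers in the WT and runx1-/- libraries at 10 dpf, on a log axis in CPM, with the number of genes of each list in brackets. Points are libraries and bars are exact Poisson intervals. Erythroid genes stood at 6383 CPM in WT and 53511 CPM in runx1-/-, endothelial genes at 68.3 and 502 CPM, and HSPC genes at 981 and 1005 CPM.

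Genes known from HSPCs did not move as a block. Of 13 HSPC genes in the files, 10 passed the CPM limit; 4 were at least 2-fold higher in the runx1-/- library and 3 at least 2-fold lower, against 13.0% and 5.35% of all genes. The summed level was 981 CPM in WT and 1005 CPM in runx1-/-, a log2 ratio of 0.04 that turned to -0.18 with trimmed-mean scaling and to -0.20 with median-ratio scaling.

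The 4 higher genes were gfi1aa, meis1b, gata2b and fli1a. Transcripts of gata2b, a Gata factor of haemogenic endothelium and HSPCs, were at 13.7 CPM in WT and 75.6 CPM in runx1-/- (log2 ratio 2.46, 2.31 to 2.62). At least 1 gata2b UMI was present in 8.79% of WT cells and 32.9% of runx1-/- cells, and after thinning every cell to 1000 UMIs in 1.74% and 10.2%. In neutrophil-like cells, which should lack the gene, the shares were 3.05% and 10.4% at median depths of 11216 and 7480 UMIs. The share in the whole runx1-/- library was thus above that in its neutrophil-like cells. The paralogue gata2a was scarce in both libraries, with 2.62 CPM in WT and 5.04 CPM in runx1-/- (log2 ratio 0.94).

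Clusters were built without gata2b, so its level in them did not help to define them. The runx1-/- clusters with most gata2b were cluster 1 at 261 CPM, cluster 19 at 255 CPM and cluster 0 at 143 CPM. In WT cells the highest levels were 79.3 CPM in cluster 12 and 67.4 CPM in cluster 11. None of these 5 clusters could be named from markers. Clusters 0, 1 and 19 held 686, 634 and 71 runx1-/- cells and 0, 11 and 0 WT cells, and clusters 11 and 12 held 166 and 159 WT cells and 2 and 5 runx1-/- cells. The clusters with most gata2b thus differed between the 2 libraries. Since 17 of 26 clusters drew over 90% of their cells from 1 library, this says little about gata2b itself.

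The homeobox gene meis1b, whose product works with Pbx proteins, was at 27.4 CPM in WT and 112 CPM in runx1-/- (log2 ratio 2.03, 1.92 to 2.14), with a UMI in 16.5% and 46.3% of cells. The repressor gene gfi1aa had 49 counts in WT and 843 in runx1-/-, or 1.69 and 24.4 CPM (log2 ratio 3.83, 3.44 to 4.30). The ETS factor gene fli1a, which is used by endothelial and blood cells alike, was at 20.5 and 59.1 CPM (log2 ratio 1.52, 1.39 to 1.66). For the partners lmo2 and tal1 the log2 ratios were 0.87 and 0.37, below the 2-fold limit. A UMI of lmo2 was found in 43.1% of WT cells and 66.4% of runx1-/- cells, and one of tal1 in 31.6% and 50.1%.

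The 3 lower genes were tcf15, hlfa and myb. The bHLH factor gene tcf15 had 1765 counts in WT and 45 in runx1-/-, or 60.8 and 1.304 CPM (log2 ratio -5.51, -6.00 to -5.12), the lowest ratio among genes with a mean of at least 20 CPM. Its UMIs were in 14.6% of WT cells and 0.481% of runx1-/- cells. The share in neutrophil-like cells was 0.763% in WT, and 0 of 230 cells in runx1-/-. The PAR bZIP factor gene hlfa was at 38.9 CPM in WT and 11.8 CPM in runx1-/- (log2 ratio -1.72, -1.89 to -1.56). For myb the levels were 318 and 144 CPM (log2 ratio -1.15, -1.196 to -1.096), with a UMI in 58.6% of WT cells and 50.6% of runx1-/- cells. The shares of myb-positive cells thus lay closer together than the summed levels. The adhesion receptor gene adgrg1 was at 189 and 97.4 CPM (log2 ratio -0.96).

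Among 36 haematopoietic transcription factor genes, many of them also on the HSPC list, 24 passed the CPM limit. Of these, 5 were at least 2-fold higher (20.8%) and 9 at least 2-fold lower (37.5%), against 13.0% and 5.35% of all genes. The median log2 ratio was -0.16. Of the C/EBP factor genes of granulocytes and macrophages, cebpb and cebpa were among the lower genes, and cebp1 was not. Transcripts of cebpb were at 1439 CPM in WT and 241 CPM in runx1-/- (log2 ratio -2.58, -2.61 to -2.55), and 74.3% of WT cells but 29.97% of runx1-/- cells had a UMI. After thinning the shares were 51.5% and 15.9%, so the gap was also there at matched depth. The level of cebpa was 148 CPM in WT and 44.2 CPM in runx1-/- (log2 ratio -1.75). For runx3, a Runx family member that binds the same partner as Runx1, the levels were 61.3 and 13.9 CPM (log2 ratio -2.14, -2.29 to -1.99). The myeloid ETS gene spi1b (pu.1) was at 120 and 81.8 CPM (log2 ratio -0.55), and its relatives spi1a and spi2 had log2 ratios of -2.20 and -1.54. The partner gene cbfb was at 53.3 and 41.8 CPM (log2 ratio -0.35).

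**Figure D2:**
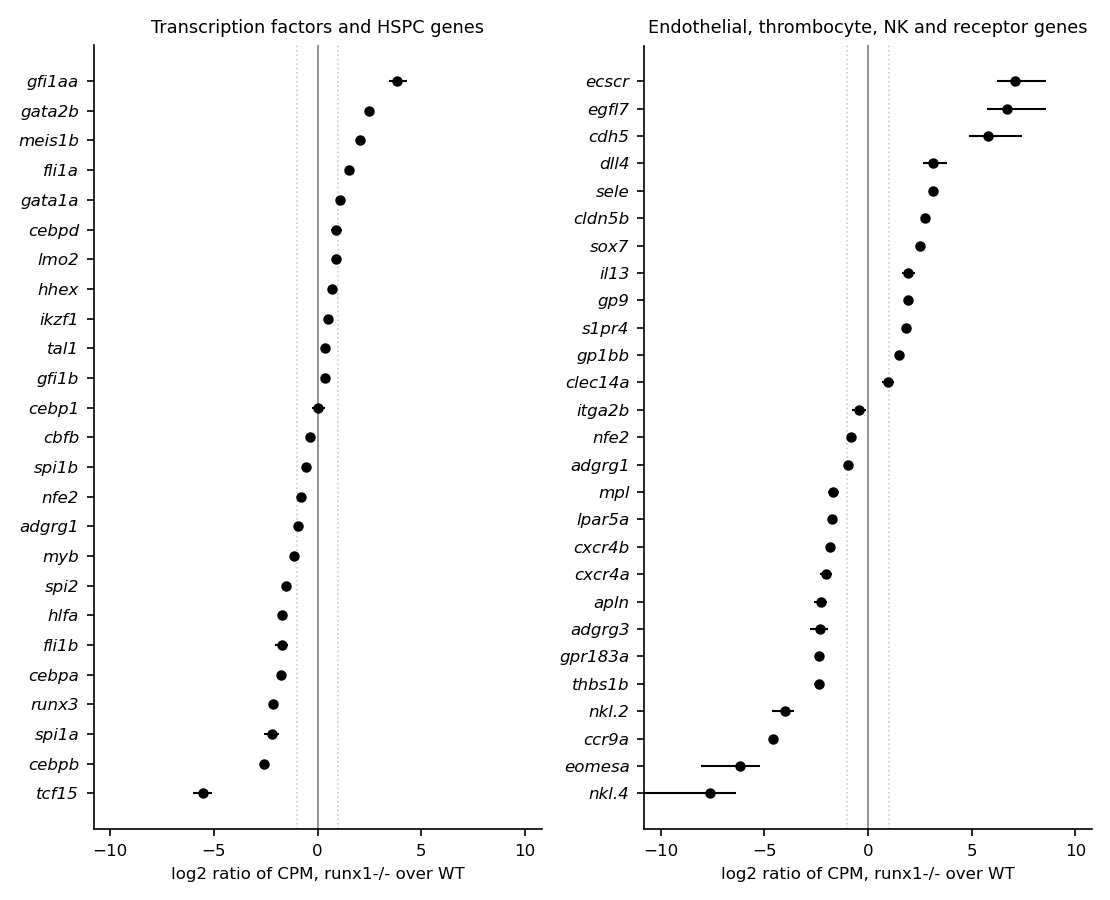
Log2 ratio of CPM, runx1-/- over WT at 10 dpf, for transcription factor and HSPC genes (left) and endothelial, thrombocyte, NK and receptor genes (right), with conditional binomial intervals for counting error. Dotted lines mark 2-fold, and the interval of nkl.4 runs past the axis. The HSPC genes gata2b (2.46), meis1b (2.03) and gfi1aa (3.83) lie to the right of 0, tcf15 (-5.51) and cebpb (-2.58) to the left, and the endothelial genes egfl7 (6.70) and ecscr (7.07) far to the right.

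Abundant receptors that guide blood cells were lower in the runx1-/- library. Of 14 chemokine receptor and ligand genes, 3 passed the CPM limit and all 3 were at least 2-fold lower, against 5.35% of all genes. With no CPM limit, 6 of 13 were at least 2-fold lower and 6 at least 2-fold higher. Of all 21142 genes under that setting, 2522 were lower and 4885 higher. As a mean over cells 3 of 5 were lower and 2 higher, against 348 and 894 of all 7611 genes. The receptor gene ccr9a, whose product guides lymphoid progenitors to the thymus, was at 868 CPM in WT and 35.6 CPM in runx1-/- (log2 ratio -4.61, -4.69 to -4.53). A ccr9a UMI was found in 57.0% of WT cells and 3.94% of runx1-/- cells. The stem cell homing receptor gene cxcr4b was at 467 and 132 CPM (log2 ratio -1.82), with a UMI in 71.3% and 18.9% of cells, and cxcr4a had a log2 ratio of -2.02. Both libraries thus held many cells without a UMI of these genes, and WT fewer, at median depths of 10818 UMIs in WT and 7542 in runx1-/-. Of 5 receptor genes for lipid ligands or adhesion that passed, 3 were at least 2-fold lower and 1 higher, against 5.35% and 13.0% of all genes. The lower ones were gpr183a, a receptor for oxysterols (51.8 and 10.2 CPM), lpar5a, a receptor for lysophosphatidic acid (202 and 61.2 CPM), and adgrg3 (8.55 and 1.68 CPM). The sphingosine-1-phosphate receptor gene s1pr4 was higher, at 9.07 CPM in WT and 32.7 CPM in runx1-/-. Of 6 cytokine receptor genes that passed, 1 was at least 2-fold lower and 1 higher, against 5.35% and 13.0% of all genes. These are too few to set apart from those shares. They were the thrombopoietin receptor gene mpl (log2 ratio -1.67) and csf2rb (log2 ratio 1.197).

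The same genes were read in a subset, the cells with at least 1 myb UMI and under 5% of UMIs from haemoglobin genes, a choice made after the values were seen. This held 1466 WT cells (56.8%) and 1531 runx1-/- cells (46.1%), at median depths of 12807 and 8214 UMIs. The subset is not matched for depth, and myb itself had a log2 ratio of -0.64 in it. Several genes that were lower over all cells kept low ratios here. Their log2 values were -5.19 for tcf15, -4.19 for ccr9a, -4.65 for cldni, -2.05 for cebpb, -1.41 for runx3 and -1.43 for hlfa. The higher genes kept high ratios, with 4.16 for gfi1aa, 2.65 for gata2b, 2.40 for meis1b and 1.71 for fli1a. For spi1b and tal1 the log2 ratios were -0.07 and 0.08. For these 10 higher and lower genes the direction over all cells was thus kept in the subset. Of 119 listed genes at least 2-fold apart over all cells, 110 kept their direction here and 89 the 2-fold difference. The 9 that turned included krt4, krt91, krt5 and apoeb, lower over all cells but with log2 ratios of 2.57, 2.09, 0.57 and 2.29 here. The subset is part of the same cells, with 19253150 of 29011927 WT UMIs and 16537836 of 34519609 runx1-/- UMIs, so this is no separate support. Nor does it hold progenitors only: the neutrophil gene lyz was at 3981 CPM in WT and 5697 CPM in runx1-/- there.

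Endothelial genes were higher in the runx1-/- library. Of 19 endothelial genes, 7 passed the CPM limit. Of these, 6 were at least 2-fold higher (85.7%) and none at least 2-fold lower, against 13.0% and 5.35% of all genes. The summed level was 68.3 CPM in WT and 502 CPM in runx1-/- (log2 ratio 2.88, 2.81 to 2.94), and without the claudin gene cldn5b it was 16.9 and 162 CPM (log2 ratio 3.26). Transcripts of cldn5b, which encodes a tight junction protein of endothelium, were at 51.4 and 340 CPM.

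Several endothelial genes, but not all, were nearly absent from WT. The counts of ecscr, an endothelial membrane protein gene, were 7 in WT and 1268 in runx1-/- (log2 ratio 7.07, 6.203 to 8.57), with a UMI in 0.271% and 18.5% of cells. The secreted factor gene egfl7 had 5 and 732 counts (log2 ratio 6.70, 5.71 to 8.57). The VE-cadherin gene cdh5, the adherens junction molecule of endothelium, had 6 and 454 counts (log2 ratio 5.79, 4.86 to 7.44). In each case the runx1-/- library had the gene in a minority of its cells, and WT in almost none. In the myb subset, the endothelial gene clec14a had 95 counts in WT and 143 in runx1-/- (log2 ratio 0.80). There the log2 ratios of ecscr, egfl7 and cdh5 were 6.81, 5.77 and 6.81. On totals without haemoglobin genes, 7 of 7 endothelial genes were at least 2-fold higher, against 1077 of all 7287 genes. In cells under 5% haemoglobin 9 of 9 were, against 963 of 7333. Over all cells, the Notch ligand gene dll4, a gene of arterial endothelium, had 30 and 326 counts (log2 ratio 3.15). The SoxF factor gene sox7 was at 6.65 and 38.2 CPM (log2 ratio 2.52). Genes under the CPM limit and at 0 counts in WT were kdrl, a receptor for vascular endothelial growth factor, sox18 and plvapb. Against a floor of 3 counts in the WT library, kdrl, with 54 counts, was at least 15.1-fold higher in runx1-/-, and sox18 and plvapb, with 25 counts each, were at least 7.004-fold higher.

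The endothelial transcripts were counted cell by cell. At least 1 UMI of cdh5, egfl7, ecscr, esama, pecam1 or kdrl was found in 29 WT cells (1.12%, 0.753 to 1.61) and 944 runx1-/- cells (28.4%, 26.9 to 29.98). At least 2 of these 6 genes were found in 0 of 2583 WT cells, with an upper bound of 0.143%, and in 417 runx1-/- cells (12.5%). Among neutrophil-like cells of the runx1-/- library, 4 of 230 (1.74%) had at least 1 of the 6. The source of these transcripts was not tested. The 944 cells had a median of 7465.5 UMIs, close to the 7542 of the library. Doublet scores in the removed range of the alternative analysis were held by 88 of all 3323 runx1-/- cells. Of these 88, 41 were among the 944 cells and 13 among the 417. Such scores were thus more frequent in the 944 cells than in the whole library. Whether doublets add to the shares with several kinds of transcript was not tested.

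Of those 944 runx1-/- cells, 83.2% also had an lmo2 UMI, 71.0% a meis1b UMI, 59.6% an fli1a UMI, 55.5% a tal1 UMI and 53.4% a gata2b UMI. In the other runx1-/- cells these shares were 59.8%, 36.5%, 26.4%, 48.0% and 24.8%, and in the neutrophil-like cells of that library 7.83%, 12.6%, 22.2%, 2.61% and 10.4%. These are genes of HSPCs that endothelium or haemogenic endothelium also uses. A myb UMI was found in 46.6% of the 944 cells and 52.2% of the others. Cells with endothelial transcripts thus more often held meis1b, gata2b and fli1a, and slightly less often myb, as shares of these cells and with no test. By cluster, ecscr was highest in runx1-/- clusters 1, 0 and 19, at 124, 123 and 98.7 CPM, the same clusters that were highest for gata2b. That ecscr was not left out of the clustering limits this last value to a description.

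Erythroid genes made up far more of the runx1-/- library, nearly all through haemoglobin. Of 26 erythroid genes, 24 passed the CPM limit, with a median log2 ratio of 2.23. Of these, 18 were at least 2-fold higher and 2 at least 2-fold lower, against 13.0% and 5.35% of all genes. Without the haemoglobin genes, 8 of 12 were at least 2-fold higher and 1 at least 2-fold lower. In cells under 5% haemoglobin, 9 of 23 erythroid genes were higher and 5 lower, against 963 and 268 of all 7333 genes. Over all cells, the summed level of the list was 6383 CPM in WT and 53511 CPM in runx1-/- (log2 ratio 3.07). Without the haemoglobin genes it was 1172 and 2563 CPM (log2 ratio 1.13). Embryonic haemoglobin genes were at 5013 CPM in WT and 48286 CPM in runx1-/-, and adult ones at 199 and 2661 CPM.

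The chains did not all point one way. The embryonic alpha chain gene hbae5 was the exception, at 447 CPM in WT and 38.5 CPM in runx1-/- (log2 ratio -3.54, -3.62 to -3.46). The embryonic beta chain gene hbbe2 was at 1618 CPM in WT and 2438 CPM in runx1-/-, a log2 ratio of 0.59. The other embryonic chains were far higher. The beta chain gene hbbe1.1 was at 2129 CPM in WT and 18568 CPM in runx1-/- (log2 ratio 3.12, 3.11 to 3.14), hbae3 at 106 and 10866 CPM (log2 ratio 6.68), and hbbe1.2 at 20.2 and 3990 CPM (log2 ratio 7.62). The near-identical copies hbae1.1 and hbae1.3 had log2 ratios of 4.002 and 4.32, and reads may have been split between such copies in the authors' counting. Adult chains were led by hbba1 (152 and 1218 CPM) and hbaa1 (45.8 and 963 CPM), and hbba2 and hbaa2 had 16 and 12 counts in WT against 8508 and 8065 in runx1-/-. An unnamed locus, AL935210.1, which the reference name table lists under HBE1 together with hbbe1.2 and hbba2, was at 162 and 17848 CPM.

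Per cell, 49 WT cells (1.90%, 1.41 to 2.50) and 470 runx1-/- cells (14.1%, 13.0 to 15.4) had at least 5% of their UMIs from haemoglobin genes, with median depths of 18816 and 20022.5 UMIs. With a limit of 20% the numbers were 2 and 180 cells. The order of the libraries was the same at both limits. In those cells the chains were used in different proportions. Of the UMIs of the 12 chain genes in cells over 5%, hbae5 gave 9.95% in WT and 0.0737% in runx1-/-, hbbe2 gave 29.0% and 4.62%, hbae3 gave 2.61% and 22.0%, and hbbe1.2 gave 0.373% and 7.62%. The most abundant chain, hbbe1.1, gave 42.8% and 36.3%. The WT share rests on 49 cells.

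**Figure D3:**
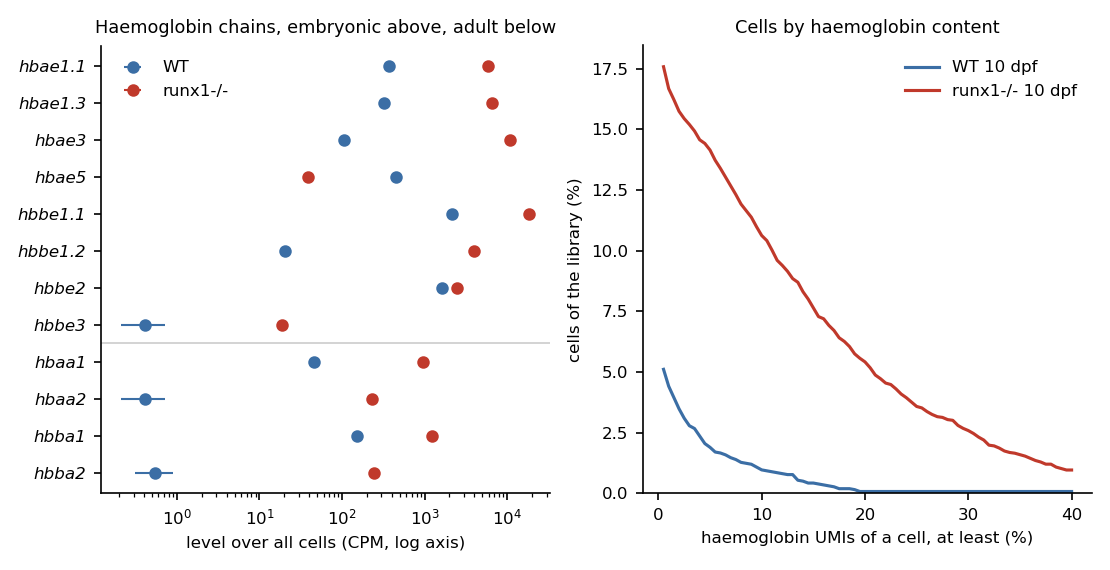
Left, level of each haemoglobin gene over all cells in CPM on a log axis, with exact Poisson intervals, embryonic chains above the line and adult chains below. Right, percent of the cells of each library with at least a given percent of their UMIs from haemoglobin genes. The runx1-/- points lie to the right for every chain but hbae5 (447 CPM in WT, 38.5 CPM in runx1-/-), and at 5% haemoglobin the curves stand at 1.90% and 14.1% of cells.

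Haemoglobin UMIs were also found outside red cells in the runx1-/- library. Among neutrophil-like cells, 0 of 131 WT cells and 20% of 230 runx1-/- cells had an hbbe1.1 UMI, with 743 counts in the latter, at least 188-fold higher than a floor of 3 counts in WT. Single haemoglobin UMIs in a runx1-/- cell were therefore not read as expression, which is why the shares above use at least 5%.

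Genes for haem synthesis went with the haemoglobin genes. Of 12 genes, 11 passed the CPM limit. Of these, 9 were at least 2-fold higher in runx1-/- (81.8%) and none at least 2-fold lower, against 13.0% and 5.35% of all genes. The erythroid enzyme gene of the first step, alas2, was at 12.2 CPM in WT and 83.7 CPM in runx1-/- (log2 ratio 2.77, 2.61 to 2.94), and the porphobilinogen deaminase genes hmbsb and hmbsa had log2 ratios of 2.52 and 2.16. The exceptions were uros (0.43) and ppox (-0.14). Among other red cell genes, the carbonic anhydrase gene cahz was at 37.5 and 471 CPM, the anion exchanger gene slc4a1a at 146 and 411 CPM, and the master regulator gata1a at 15.3 and 32.6 CPM. The gata1a value dropped below 2-fold under the other scalings, to a log2 ratio of 0.87 and 0.86. The ammonium channel gene rhag was lower in runx1-/-, at 177 CPM in WT and 62.8 CPM, and klf17, a Krüppel-like factor gene of embryonic red cells, was at 91.2 and 103 CPM.

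The erythroid-like clusters were also compared as a class, with the limit that each library's cells came from other clusters: cluster 14 held 133 of the 160 WT erythroid-like cells, and clusters 5, 9 and 21 held all 708 runx1-/- ones. Cluster 9, with 180 of the 708, had a median of 0.046% haemoglobin UMIs and 1 erythroid marker among its 10 leading genes. The median was 2.86% in cluster 14, and 14.0% and 16.7% in clusters 5 and 21. Over the class, haemoglobin genes gave 5.01% of UMIs in WT and 11.3% in runx1-/-. The ratios below were not matched for haemoglobin content. The log2 ratio of the class share was 1.78 here, but -0.34 at clustering resolution 0.5 and -0.12 at resolution 2, so no share is read from it. Of 6180 genes with a class mean of at least 5 CPM, 834 (13.5%) were at least 2-fold higher in runx1-/- and 714 (11.6%) at least 2-fold lower. Transcripts of hbae5 were at 4326 CPM in WT erythroid-like cells and 85.5 CPM in runx1-/- ones (log2 ratio -5.66), and myb at 803 and 61.8 CPM (log2 ratio -3.70). The 8 lowest genes also held the transporter gene slc6a22.2 (140 and 1.62 CPM), cxcr4b (353 and 5.25 CPM), the stress-response gene sesn1 (296 and 29.3 CPM), the cathepsin gene ctsla, the Myc gene myca and zgc:153911. In the WT class, 96.2% of cells had a myb UMI, against 47.2% in the runx1-/- class. The 8 highest were the chains hbaa2, hbba2, hbbe1.2 and hbae3, AL935210.1, the respiratory complex assembly gene uqcc2 (log2 ratio 2.59), si:ch211-56a11.2 (2.52) and mt-atp8 (2.43). Within the class, gata1a and slc4a1a had log2 ratios of 0.14 and 0.04, and of 11 haem synthesis genes 1 was higher and 1 lower.

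Other blood cell types differed in their markers. Genes of natural killer and innate lymphoid cells were at 63.0 CPM in WT and 18.0 CPM in runx1-/- (log2 ratio -1.81). Of the 4 that passed the CPM limit, 3 were at least 2-fold lower, against 5.35% of all genes. The NK-lysin gene nkl.4 had 505 counts in WT and 2 in runx1-/-, nkl.2 had 479 and 34, and the T-box factor gene eomesa had 367 and 5. The fourth, the cytokine gene il13, was at 3.69 and 14.0 CPM and was found in 0.503% of WT cells and 0.451% of runx1-/- cells. Cluster 7, led by nkl.4, nkl.2, eomesa and chemokine genes and called NK and innate lymphoid-like, held 311 WT cells (12.04%) and 16 runx1-/- cells (0.481%). In the whole libraries without thinning, at least 2 of the 11 listed genes were found in 97 WT cells (3.76%) and 6 runx1-/- cells (0.181%). At least 3 were found in 39 and 2 cells. Most of the 311 WT cells thus held fewer than 2 listed genes, and the name describes the cluster, not each cell. The genes behind that cluster are among those that differ, so its size is no further evidence.

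Macrophage genes were at 136 CPM in WT and 82.8 CPM in runx1-/- (log2 ratio -0.72). Of the 4 that passed, 2 were at least 2-fold lower, against 5.35% of all genes. These were the granulin gene grn1, at 23.6 and 11.3 CPM, and apoeb, whose log2 ratio turned to 2.29 in the myb subset. On totals without haemoglobin genes only 1 of the 4 was 2-fold lower, against 339 of all 7287 genes. Under the CPM limit, the perforin gene mpeg1.1 was at 6.93 and 2.49 CPM, and the complement gene c1qb had 63 and 9 counts. The macrophage-like cluster 8 held 190 WT cells and 17 runx1-/- cells. Thrombocyte genes were split: of 8 that passed, 3 were higher and 3 lower, against 13.0% and 5.35% of all genes. The matrix gene thbs1b was at 36.7 CPM in WT and 7.04 CPM in runx1-/-, the apelin gene apln at 13.8 and 2.81 CPM, and mpl at 14.4 and 4.52 CPM. The platelet glycoprotein genes gp9 and gp1bb were higher, at 15.9 and 59.6 CPM and at 11.7 and 33.0 CPM, as was the selectin gene sele at 13.3 and 116 CPM. In cells under 5% haemoglobin the log2 ratios of gp9 and gp1bb were 0.94 and 0.99, below 2-fold, and that of sele was 3.53. In the myb subset they were 0.73, 1.14 and 3.57. The thrombocyte-like cluster 10 held 148 WT cells and 24 runx1-/- cells. Its 10 leading genes did not include sele. That gene was among the leading genes of the unnamed cluster 0, which held 686 runx1-/- cells and 0 WT cells and was also led by ecscr.

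B lymphoid, liver and pigment genes were under 2 CPM in sum in both libraries. The T lymphoid list was at 883 CPM in WT and 46.9 CPM in runx1-/-, but without ccr9a at 14.7 and 11.4 CPM, so that list rested on ccr9a. The epithelial list was at 787 and 76.0 CPM, and without its most abundant gene, the claudin gene cldni, at 196 and 54.9 CPM (log2 ratio -1.83). Its other members krt91, krt4, krt5 and agr2 were at least 2-fold lower as well, from 42.3 and 5.21 CPM for krt91 to 74.3 and 15.5 CPM for agr2. Few cells had several of these genes. With cells thinned to 1000 UMIs, at least 3 epithelial genes were found in 7 WT cells (0.276%) and 6 runx1-/- cells (0.188%). Among the leading genes of cluster 24, with 10 WT cells and 1 runx1-/- cell, was agr2. Of the dendritic list, 2 of the 3 genes that passed were at least 2-fold higher, against 13.0% of all genes. Both are genes for antigen presentation. The invariant chain genes cd74a and cd74b were at 24.3 and 50.3 CPM in WT and at 70.4 and 121 CPM in runx1-/- (log2 ratios 1.53 and 1.27), and in the myb subset their log2 ratios were 3.18 and 2.62. A cd74b UMI was found in 21.8% of WT cells and 37.2% of runx1-/- cells, against 3.82% and 3.04% of neutrophil-like cells.

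Among the named clusters, neutrophils were the one mature class found in number in 1 shared cluster. Cluster 6, led by lyz, lect2l, npsn, mmp13a and cpa5, held 131 WT cells (5.07%, 4.26 to 5.99) and 230 runx1-/- cells (6.92%, 6.08 to 7.84). With cells thinned to 1000 UMIs, at least 3 neutrophil genes were found in 4.62% of WT cells and 5.74% of runx1-/- cells, and without thinning in 13.7% and 8.70%, the opposite order. Over all cells, 3 of 13 neutrophil genes were at least 2-fold higher (23.1%, against 13.0% of all genes) and none at least 2-fold lower (5.35% of all genes). The lysozyme gene lyz was at 3777 and 5300 CPM (log2 ratio 0.49), the myeloperoxidase gene mpx at 62.1 and 31.3 CPM (log2 ratio -0.99), and the collagenase gene mmp13a at 29.0 and 189 CPM (log2 ratio 2.70).

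Within neutrophil-like cells, 6674 genes had a class mean of at least 5 CPM; 810 (12.1%) were at least 2-fold higher in runx1-/- and 262 (3.93%) at least 2-fold lower. The neutrophil genes themselves were near that background, with 2 of 13 higher and none lower. Of the genes with very low ratios over all cells, cldni, cxcl19 and ccr9a were lower here too. Transcripts of cldni were at 326 CPM in WT and 2.06 CPM in runx1-/- (479 and 4 counts, log2 ratio -6.95, -9.19 to -5.94), the chemokine gene cxcl19 at 404 and 16.5 CPM, and ccr9a at 1942 and 373 CPM (log2 ratio -2.38). The 8 lowest genes were completed by the fatty acid binding protein gene fabp3 (415 and 74.3 CPM), pmp22b, dap1b, ctsla and tmsb1.

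Some genes that were lower over all cells were not 2-fold lower within the neutrophil-like class. There cebpb had a log2 ratio of -0.35, cebpa of -0.50, runx3 of 0.48, cxcr4b of 0.17 and myb of 0.35. The counts of meis1b (2 in WT and 42 in runx1-/-) and gata2b (4 and 42) in this class were not read as expression in neutrophil-like cells. Their source was not tested. The 8 highest genes were hbbe1.1, described above, the coagulation factor gene f5 (1 and 396 counts, log2 ratio 7.34, 5.74 to 13.5), CABZ01058647.1 (81.7 and 6376 CPM), the cobalamin carrier gene tcnbb (3 and 263 counts, log2 ratio 5.70, 4.49 to 8.34), the small heat shock gene hspb1 (4 and 243 counts), the cystatin gene cst14b.2 (171 and 4822 CPM), the G protein regulator gene rgs2 (6.81 and 193 CPM) and the relaxin gene rln3a (6.81 and 124 CPM). Of these, f5 and rln3a were also among the 10 leading genes of cluster 2, which held 573 runx1-/- cells and 0 WT cells. Whether their counts arose in neutrophil-like cells was not tested, and they were not read as expression there. With 131 and 230 cells from 1 library each, all these values only describe the counts in those barcodes.

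Among all genes with a mean of at least 20 CPM, the 15 lowest ratios included those of tcf15, ccr9a and hbae5, given above, and cldni, a claudin gene of tight junctions, at 592 CPM in WT and 21.1 CPM in runx1-/- (log2 ratio -4.81, -4.92 to -4.70), with a UMI in 43.2% and 7.25% of cells. The transcriptional cofactor gene nab1a, a partner of Egr factors, was at 99.1 and 5.04 CPM (log2 ratio -4.29), with a UMI in 34.6% and 3.07% of cells. The chemokine gene cxcl19 was at 113 and 4.69 CPM. Genes known only by locus names but found in over 20% of WT cells were si:dkeyp-68b7.12, si:dkey-109a10.2 and zgc:153317, with log2 ratios of -3.60, -3.58 and -3.36.

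The others of the 15 lowest came from few cells. The protease inhibitor genes spink2.2, spink2.3 and spink2.5 were found in 2.79%, 1.55% and 1.12% of WT cells, si:ch211-14a17.10 in 1.43% and si:ch73-359m17.2 in 3.87%, and si:dkey-21e2.10 in 0.542%. The spink2 genes are near copies of each other, and reads may have been split among them.

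**Figure D4:**
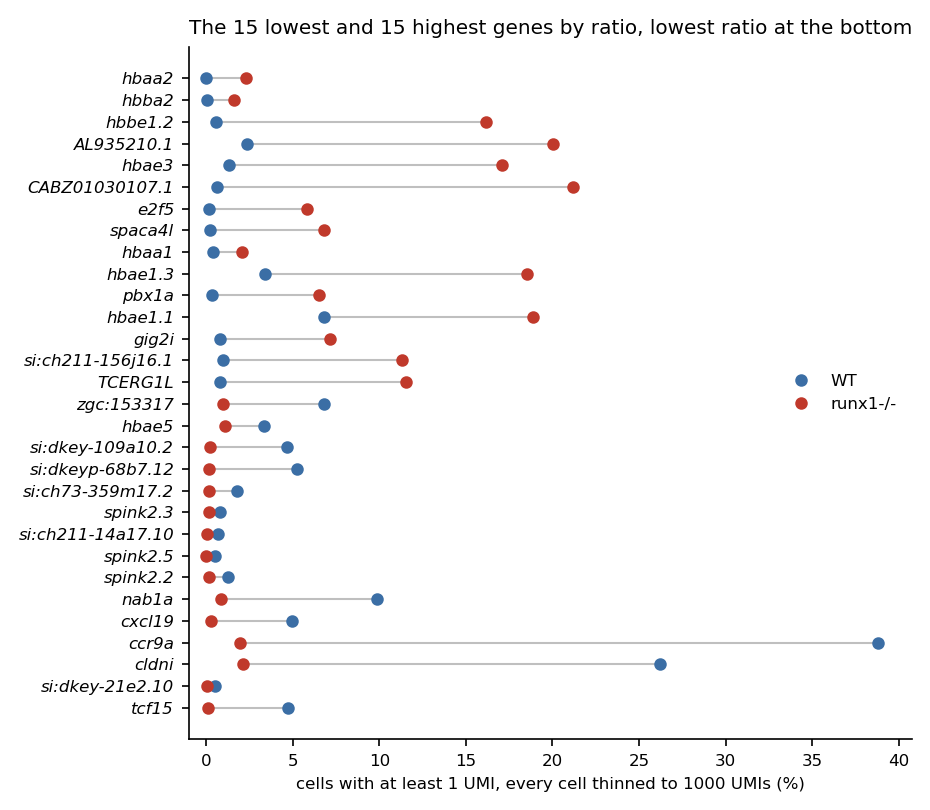
Percent of cells with at least 1 UMI of the 15 genes with the lowest and the 15 with the highest ratio, runx1-/- over WT at 10 dpf, with every cell thinned to 1000 UMIs. Points are libraries. The widest gaps on the WT side are those of ccr9a (38.8% and 1.94%) and cldni (26.2% and 2.13%), while several lowest genes, such as si:dkey-21e2.10, were found in few cells of either library.

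The 15 highest held 7 haemoglobin genes, hbaa1, hbaa2, hbba2, hbbe1.2, hbae1.1, hbae1.3 and hbae3, and AL935210.1. The other 7 were found in 22.7% (e2f5) to 35.4% (si:ch211-156j16.1) of runx1-/- cells. The homeobox gene pbx1a, whose product pairs with Meis proteins, was at 2.62 CPM in WT and 44.0 CPM in runx1-/- (log2 ratio 4.05, 3.74 to 4.42), with a UMI in 2.59% and 26.1% of cells. The E2F family gene e2f5 was at 1.72 and 47.9 CPM (log2 ratio 4.77), and in the myb subset the log2 ratios of pbx1a and e2f5 were 4.29 and 4.87. The remaining 5 were CABZ01030107.1 (8.27 and 386 CPM), spaca4l (2.41 and 55.4 CPM), gig2i (4.31 and 66.0 CPM), si:ch211-156j16.1 (6.10 and 88.4 CPM) and TCERG1L (7.31 and 94.4 CPM). A TCERG1L UMI was found in 4.03% of WT cells and 30.3% of runx1-/- cells.

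Genes of DNA replication had mostly positive ratios. Of 15, 4 were at least 2-fold higher in runx1-/- (26.7%, against 13.0% of all genes) and none at least 2-fold lower, with a median log2 ratio of 0.89 and summed levels of 1457 and 2502 CPM. The helicase gene mcm5 was at 43.7 and 117 CPM and gins2 at 18.7 and 56.4 CPM, while mcm7 was at 106 and 96.1 CPM. The 4 became 3 with trimmed-mean scaling, against 661 of all 7216 genes, and 2 in cells under 5% haemoglobin, against 963 of all 7333. Mitosis genes had a median log2 ratio of 0.15, and 2 of 13 were at least 2-fold higher (15.4%), near the 13.0% of all genes. That count was 0 with median-ratio scaling, against 648 of all 7216 genes. Their sum turned from a log2 ratio of 0.11 to -0.11 with trimmed-mean scaling. Of 16 immediate early genes, 4 were at least 2-fold higher, against 13.0% of all genes: fosl1a, atf3, klf2a and klf2b, the last at 5.96 and 19.1 CPM. The 4 became 2 with trimmed-mean scaling and 8 in cells under 5% haemoglobin, against those same 661 and 963 of all genes. Krüppel-like factor 2 is known as a flow-responsive gene of endothelium. Of the interferon genes isg15 was higher, at 4.93 and 29.1 CPM, and the signal transducer stat1a had a log2 ratio of -0.84. Of 9 p53 target genes that passed, 1 was at least 2-fold lower and none higher, against 5.35% and 13.0% of all genes. That gene was sesn1 (215 and 56.4 CPM). Among cathepsin genes ctsla was at 445 and 160 CPM and ctss2.2 at 24.96 and 6.11 CPM, while the osteoclast protease gene ctsk was at 2.34 and 17.3 CPM, from 0.752% of runx1-/- cells.

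The ratios were set beside those of the other ages, each from 1 library per genotype, where the 2 runx1-/- libraries of 16 dpf, labelled bloodless and recovered, share their WT library. Transcripts of tcf15 had a negative log2 ratio at each age, namely -6.95, -3.68 and -5.51 at 2.5, 6 and 10 dpf, then -3.37 (bloodless) and -4.65 (recovered) at 16 dpf. Those of ccr9a did too, with -2.65, -6.60, -4.61, -2.98 and -3.53, and those of cebpb, with -1.47, -1.59, -2.58, -1.69 and -2.33. For gata2b the log2 ratio was -3.38 at 2.5 dpf, then 1.65 at 6 dpf, 2.46 at 10 dpf, and 1.52 and 0.85 at 16 dpf. The highest ratio for gata2b was thus that of 10 dpf, and 2.5 dpf had the opposite sign.

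Erythroid genes as a sum had log2 ratios of 4.98, 1.101, 3.07, 4.82 and 4.64 in the same order, and endothelial genes of 1.72, 5.95, 2.88, 2.38 and 1.17. Neutrophil genes had a positive value at 10 dpf and negative ones elsewhere, with -4.24, -1.18, 0.50, -3.50 and -2.13. For the sum of HSPC genes the log2 ratios were -1.99, 0.42, 0.04, -0.03 and 0.43. These differences between ages were not tested, and the barcodes of the 2.5 dpf libraries start at 2907 UMIs or more against 500 at 10 dpf. The 2.5 dpf counts also list 26586 genes, against 26573 at 10 dpf. At 6 dpf the runx1-/- library held only 767 cells, with a median of 4276 UMIs. Age and processing thus cannot be told apart.

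**Figure D5:**
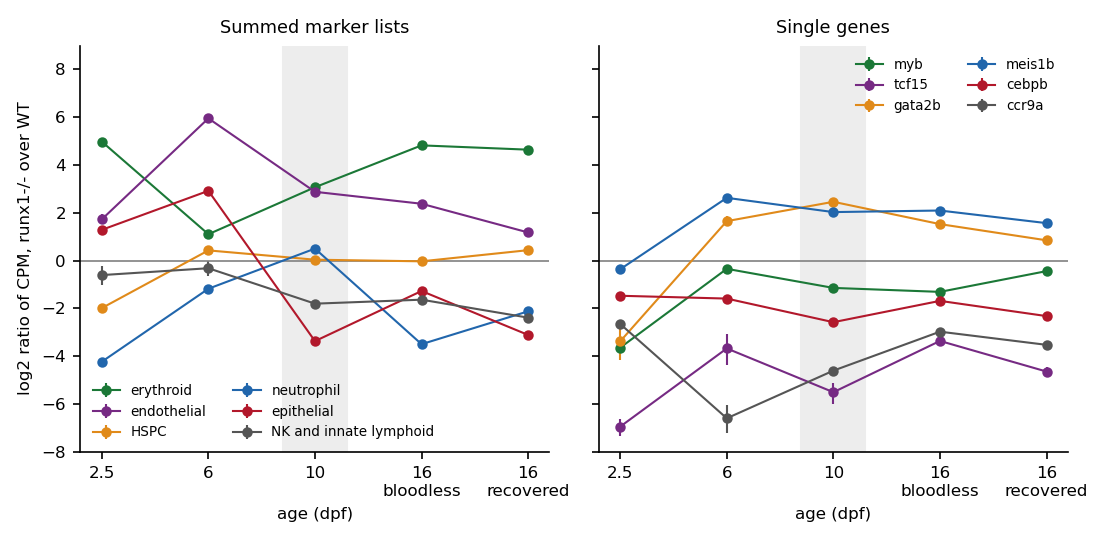
Log2 ratio of CPM, runx1-/- over WT, at 2.5, 6, 10 and 16 dpf for summed marker lists on one side and single genes on the other, with intervals for counting error. The shaded column is 10 dpf, and both 16 dpf columns share a WT library. Neutrophil genes cross 0 at 10 dpf (0.50), and gata2b goes from -3.38 at 2.5 dpf to 2.46 at 10 dpf, while tcf15 stays below -3 at every age.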

How the data were processed

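The authors deposited raw counts of UMIs for each gene in each barcode, from 10x Genomics 3′ libraries of sorted cells, per the labels' protocols. Cell Ranger 2.0.2 and the zebrafish build GRCz10 are named in the submitters' processing notes without a role, and the cell-calling rule was not given in the sources used here. Symbols are those of the files, and identifiers that shared a symbol were summed.

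The counts of the 2 libraries were summed over cells with at least 500 UMIs, 200 genes and at most 20% mitochondrial UMIs, and given as CPM with exact Poisson intervals. Log2 ratios had 1 count added to each side, scaled to depth, with conditional binomial intervals, and shares have exact Clopper-Pearson intervals, all at 95%. Intervals cover counting error only. Shares were also computed with cells thinned to 1000 UMIs, leaving out 51 WT and 133 runx1-/- cells. A gene counted as apart at 2-fold with a mean of at least 5 CPM. Named genes were members of listed groups, the 15 highest and 15 lowest ratios at a mean of at least 20 CPM, and the 8 highest and 8 lowest within classes of at least 50 cells a library at a class mean of at least 50 CPM.

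Cells of both libraries were clustered together (scanpy 1.11.5, leidenalg 0.10.2, 2000 variable genes, 30 components, 15 neighbours, resolution 1) without runx1, gata2a and gata2b. A cluster was named when 1 marker list led the next by 0.5 in score with at least 3 detected markers, 1 of them among its 10 leading genes, a rule set after the cluster tables were seen. Doublets were kept: the automatic Scrublet threshold called 3 and 8 cells and was judged not to have worked. The ratio script was tested on simulated data. Members and lists were chosen with earlier results of these data known. Scaling factors came from edgeR 4.0.16 and DESeq2 1.42.0.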

Additional observations from a re-analysis of the deposited data

Results flagged for a closer look

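Several ratios at 10 dpf had the opposite sign at another age, at least 2-fold each way. Each age had 1 library per genotype, and none of these differences was tested. Processing also differed between ages, as given above. Against 2.5 dpf, gata2b had a log2 ratio of 2.46 at 10 dpf and -3.38 at 2.5 dpf, where it stood at 17.6 CPM in WT and 1.65 CPM in runx1-/-. The HSPC repressor gene gfi1aa had 3.83 at 10 dpf and -4.98 at 2.5 dpf, where it stood at 24.96 and 0.740 CPM. The sum of germ cell genes had 3.09 at 10 dpf and -3.07 at 2.5 dpf, with a wide interval of -4.67 to -2.03 at 2.5 dpf. At 10 dpf it stood at 4.65 CPM in WT and 39.8 CPM in runx1-/-, and the germ-like cluster held only 1 and 16 cells.

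The sum of epithelial genes had a log2 ratio of -3.37 at 10 dpf, against 1.29 at 2.5 dpf and 2.92 at 6 dpf. At 6 dpf it was 2454 CPM in WT and 18540 CPM in runx1-/-, and at 10 dpf 787 and 76.0 CPM. Its member cldni had -4.81 at 10 dpf, against 1.26 at 2.5 dpf and 1.02 at 6 dpf, where it was at 177 and 359 CPM. The embryonic alpha globin gene hbae5 had -3.54 at 10 dpf, against 2.29 and 5.93 in the bloodless and recovered libraries of 16 dpf. There it was at 24.4 CPM in WT, 119 CPM in the bloodless library and 1491 CPM in the recovered one.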

How the results depend on the processing

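No paired analysis was possible because each genotype had 1 library, and for the same reason no replicate could be left out. Of 119 listed genes at least 2-fold apart, all kept their direction under the 7 alternatives that kept all lineages in the sums, 116 did in cells under 5% haemoglobin and 110 in the myb subset. The 2-fold difference itself was kept by 110 with trimmed means, 109 with DESeq2 factors, 106 as a mean over cells, 97 under 5% haemoglobin, 89 in the myb subset and at least 118 elsewhere. The cause of the following differences was not tested, beyond the fixed shift of a scaling and the cells each subset leaves out. The count of higher genes went from 938 to 4885 with no CPM limit and 391 at 20 CPM. That of lower genes went from 386 to 593 with trimmed means (TMM), 607 with DESeq2 factors, 2522 with no limit, 157 at 20 CPM and 254 in the myb subset. The erythroid sum (3.07) was 2.85 with TMM, 2.84 with DESeq2 factors, 3.14 on totals without haemoglobin, 3.09 without the highest doublet scores, 2.88 as a mean over cells, 0.63 in cells under 5% haemoglobin and 0.29 in the myb subset. With TMM, with DESeq2 factors, as a mean over cells, under 5% haemoglobin and in the myb subset, the endothelial sum (2.88) was 2.66, 2.65, 2.95, 3.29 and 2.79, and the NK sum (-1.81) was -2.02, -2.04, -2.61, -1.39 and 0.59. The share of cells with 3 erythroid markers (log2 0.95) gave 0.44 with 2 markers, 0.62 thinned to 2000 UMIs and 0.095 unthinned. Signs turned for the HSPC sum (TMM -0.18, DESeq2 -0.20), mitosis (TMM -0.11, DESeq2 -0.12, myb subset -0.041), the macrophage sum (0.14 in the myb subset), kidney tubule genes (-0.023 under 5% haemoglobin), the neutrophil share unthinned (-0.66) and the erythroid-like share (1.78 to -0.34 at resolution 0.5 and -0.12 at resolution 2). Turned signs as a mean over cells, under 5% haemoglobin and in the myb subset were 0.13, 0.15 and 0.12 for interferon genes and 0.079, 0.19 and 0.11 for inflammatory genes, and in the first pair 0.065 and 0.053 for p53 targets. In the myb subset apoeb (2.29), krt4 (2.57), krt5 (0.57), krt91 (2.09), blvrb (-0.21), epb41b (-0.074), hbaa1 (-1.32), hbba1 (-3.51) and hemgn (-0.52) turned, and under 5% haemoglobin hbaa1 (-0.90), hbba1 (-2.75) and hemgn (-0.24) did.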

Other observations

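A few cells of other tissues were sorted in both libraries and were kept in all totals. Cluster 23, led by the germ cell genes ddx4, piwil1 and dazl, held 1 WT cell and 16 runx1-/- cells, and the sum of germ cell genes was 4.65 CPM in WT and 39.8 CPM in runx1-/-. Cluster 22, led by the neuronal genes elavl3, elavl4 and stmn1b, held 7 and 15 cells. Cluster 20, led by the heart muscle genes myl7, cmlc1 and tnnt2a with the keratin genes krt91 and krt5, held 15 and 38 cells. Cluster 16, led by stc1l, a stanniocalcin gene, and fgf23, a phosphate-regulating hormone gene, held 44 and 52 cells, or 1.703% of WT cells and 1.56% of runx1-/- cells. Cluster 25, led by the osteoclast genes acp5a and ctsk with spp1, held 7 runx1-/- cells and no WT cell.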
